A study of Arabidopsis thaliana with 2 samples.

Results

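Plant defensin transcripts were examined in hypocotyls of Arabidopsis thaliana, the part of the stem between root and seed leaves, in 2 samples. The 5 genes were chosen by name, as the probe sets with 1 gene whose symbol starts with PDF1. or PDF2., from 22746 plant probe sets in all. They are PDF1.2, PDF1.2b and PDF1.4 of the PDF1 subfamily and PDF2.1 and PDF2.5 of the PDF2 subfamily. Peptide deformylase genes with similar symbols were left out.

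Plants of both samples were of the Col ecotype at growth stage 6.0. They were kept at 22 °C in a phytotron unit on compost and vermiculite, under days of 8 h light and 16 h dark, and a product labelled Intercept was given with the first watering. Each sample, called sample 1 and sample 2 here, was hybridised to its own 1-colour ATH1 array. Tissue and conditions are the same for both in the labels. They form 1 group with nothing to contrast, and no test was possible. Whether they are separate plants is not stated, and the spread between them may therefore be technical.

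Defensins are small secreted peptides held together by disulfide bridges between cysteines, and many of them inhibit the growth of fungi. PDF1.2 is widely used as a marker of the combined jasmonate and ethylene defence response. In that response EIN3 and its relatives raise the ERF-type activators ERF1 and ORA59, which act on the PDF1.2 promoter. Genes of the PDF2 subfamily are generally known for expression in healthy tissue, without an attack.

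Background was judged from 27 control probe sets for Bacillus transcripts, which plant RNA should not contain. The highest control signal was taken as the limit on each array, 13.1 in sample 1 and 12.6 in sample 2, on the linear scale of the deposited signals. The median control signal was 1.2 and 2.1. Both limits were set by control probe sets for the thr transcript, and the highest control of any other transcript had 9.9 in sample 1 and 5.8 in sample 2. The median signal over all probe sets was 42.0 and 42.7. Of 8 genes of secondary growth in hypocotyls, 8 were above the limit on both arrays, against 70.0% of all plant probe sets. Those with the highest mean signals were HCT of lignin synthesis, CLE41 and MOL1 of the cambium and IRX15-L of xylan synthesis. Of 5 genes listed as markers of other tissues 4 were above the limit too. Among these were the photosynthesis genes RCA, with 243 and 252, and LHCB4.1, with 653 and 694. The others, which passed narrowly, were the root hair genes EXPA7, with 14.9 and 13.6, and EXPA18, with 15.2 and 15. The anther gene A9 had 2.2 and 1.2. Passing this limit therefore does not distinguish hypocotyl from other tissues. Whether the signals of these listed genes arose in hypocotyl cells was not tested.

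Of the 5 defensin genes, 1 was above the Bacillus limit on both arrays. Over all plant probe sets, 70.0% were. The gene above it was PDF2.1, by a small margin, and none of the 3 PDF1 genes passed the limit in either sample. PDF2.5 passed in sample 2 alone. Taken singly, the limit was passed by 1 member in sample 1, against 71.7% of plant probe sets, and by 2 members in sample 2, against 73.4%. In bulk tissue, fewer cells with a transcript and less RNA per cell cannot be told apart. A signal under the limit means that a transcript was not detectable against this background, not that it was absent. Signals of different genes were not read as relative amounts of RNA, since probes report the same amount of RNA with different brightness. This also affects the calls made here, which set each probe set against control probe sets.

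**Figure D1:**
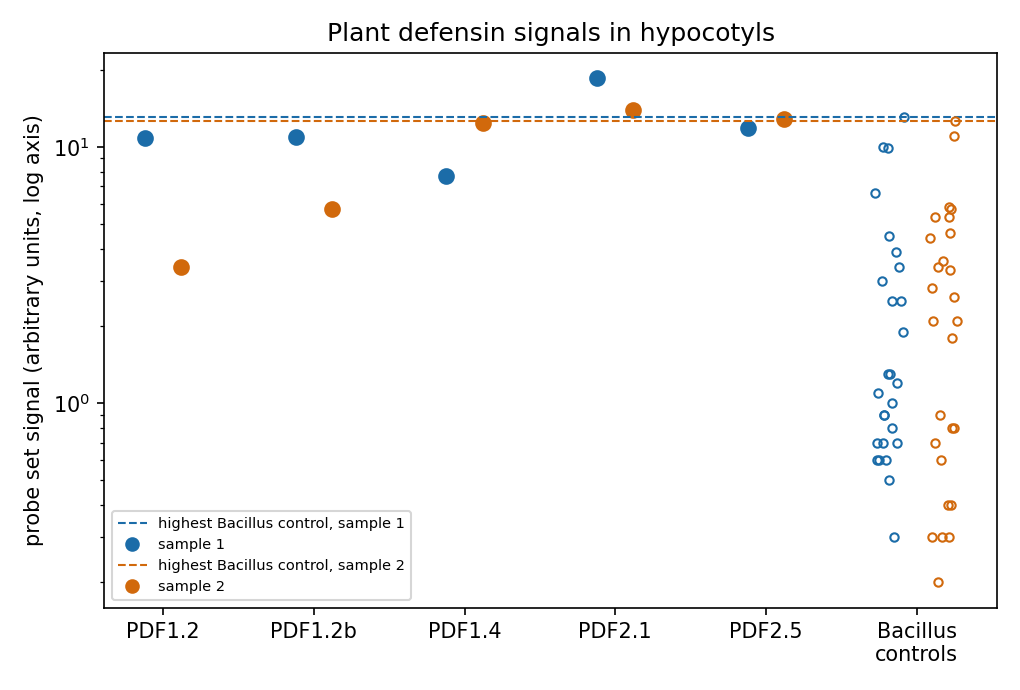
Signals of the 5 defensin probe sets (filled points) and of the 27 Bacillus control probe sets (open points, spread sideways for legibility) in sample 1 (blue) and sample 2 (orange), in arbitrary units on a log axis. Dashed lines mark the highest control signal, 13.1 in sample 1 and 12.6 in sample 2; PDF2.1 lies above its line in both samples, and the PDF1 genes lie below theirs.

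PDF1.2 (AT5G44420), the jasmonate and ethylene marker gene, gave 10.8 in sample 1 and 3.4 in sample 2, a mean of 7.10 ± 5.23 (SD, n = 2). Both values were below the limit. In sample 1 its signal exceeded that of 26 of the 27 Bacillus controls. In sample 2 it exceeded that of 17, so 10 bacterial controls gave as much signal as the PDF1.2 probe set or more.

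PDF1.2b (AT2G26020), a close copy of PDF1.2, had 10.9 in sample 1 and 5.7 in sample 2, a mean of 8.30 ± 3.68 (SD, n = 2). It was also below the limit on both arrays, above 26 of the controls in sample 1 and 23 in sample 2. Its probe set has the suffix _x_at, which Affymetrix gives to sets with probes that match other sequences as well. PDF1.2, PDF1.2b and PDF1.2c are near-identical copies, so the signals of the PDF1.2 and PDF1.2b probe sets may share a source, which was not tested. In the RefSeq gene order PDF1.2 is next to PDF1.2c, and PDF1.2b is next to PDF1.3. PDF1.2c and PDF1.3 have no probe set with 1 gene in the annotation used here and were not analysed.

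PDF1.4 (AT1G19610), a more distant member of the subfamily, was likewise below the limit on both arrays. Its signal was 7.7 in sample 1 and 12.4 in sample 2, a mean of 10.1 ± 3.32 (SD, n = 2). The value in sample 2 lay 0.2 under the limit there. In sample 1, 3 Bacillus controls were as bright or brighter.

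PDF2.1 (AT2G02120) was the member above both limits. It had 18.5 in sample 1 and 13.9 in sample 2, a mean of 16.2 ± 3.25 (SD, n = 2). Both signals exceeded those of all 27 controls, by 5.4 units over the limit in sample 1 and 1.3 units in sample 2. The log2 ratio of sample 2 over sample 1 was -0.41. Among the 3284 plant probe sets with mean signals within 1.5-fold of that of PDF2.1, the SD of this ratio was 0.51, so the difference between the samples was smaller than the usual spread at such signals.

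PDF2.5 (AT5G63660), whose peptide has been reported to bind cadmium, had 11.8 in sample 1 and 12.8 in sample 2, a mean of 12.3 ± 0.71 (SD, n = 2). The samples lay close together on either side of the limit, 1.3 units under it in sample 1 and 0.2 units over it in sample 2. Among plant probe sets of like mean signal, 31.4% were above the limit on both arrays, against 63.5% for those like PDF2.1. These shares follow from where the mean signals lie against the limits, and say nothing further about either gene.

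Ratios between the samples were not read for the 4 genes with a signal at or under a limit, since background makes up an unknown part of such signals. As values, the log2 ratios of sample 2 over sample 1 were -1.67 for PDF1.2, -0.94 for PDF1.2b, 0.69 for PDF1.4 and 0.12 for PDF2.5. For plant probe sets with mean signals within 1.5-fold of that of PDF1.2, the log2 ratio had an SD of 1.06, and 5% of them were below -1.69. The corresponding SD was 0.94 around PDF1.2b, 0.80 around PDF1.4 and 0.67 around PDF2.5. PDF2.1, the only member with both signals above the limits, did not differ by 2-fold. Of the 15919 plant probe sets above both limits, 0.320% were at least 2-fold higher in sample 2 and 0.144% in sample 1.

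**Figure D2:**
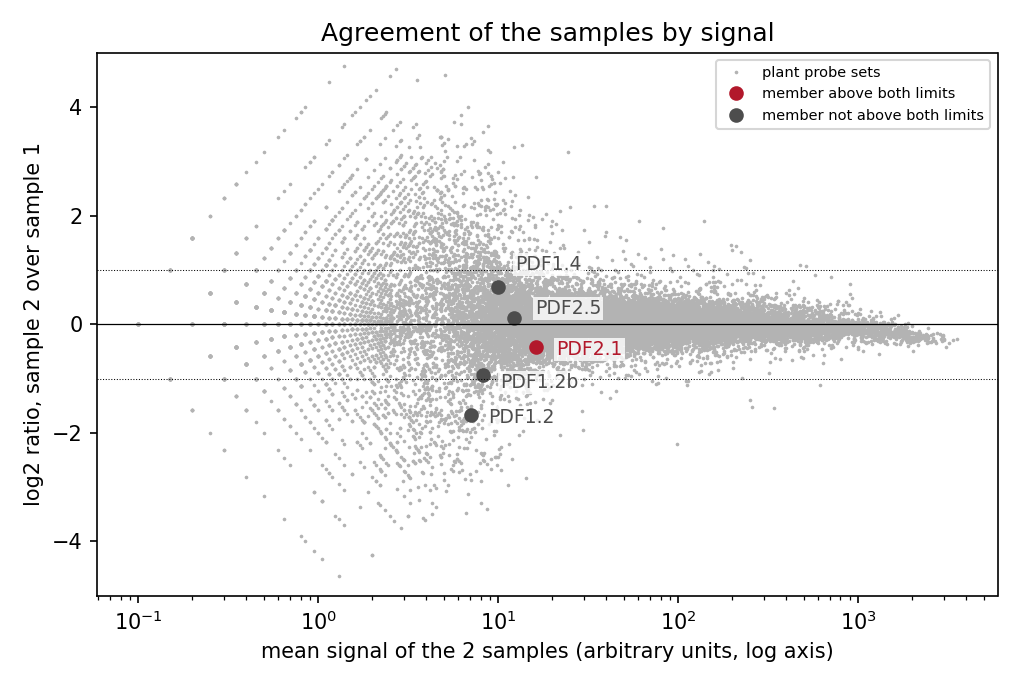
Log2 ratio of sample 2 over sample 1 against the mean signal of the 2 samples (arbitrary units, log axis) for 22719 plant probe sets (grey) and the 5 defensin genes (red where above both limits, dark grey where not); dotted lines mark 2-fold. The 27 plant probe sets with a signal of 0 are not drawn and 4 lie outside the axis; the defensins sit where the cloud is wide, with PDF2.1 at -0.41 and PDF1.2 at -1.67.

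Other defensin genes of Arabidopsis carry an LCR symbol (low-molecular-weight cysteine-rich) in the annotation and so fall outside the choice by name. Of 15 family genes listed by locus, 12 had a probe set with 1 gene in the annotation. Of the 12, 2 were above the limit on both arrays, against 70.0% of all plant probe sets. The other one besides PDF2.1 was PDF2.2 (AT2G02100, symbol LCR69). PDF2.2 had signals of 81.1 in sample 1 and 66.9 in sample 2, a mean of 74.0 ± 10.0 (SD, n = 2), with a log2 ratio of -0.28. Both samples were above the limits, by 68.0 and 54.3 units.

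The other 3 measured PDF2 genes outside the choice by name were under the limit on both arrays. PDF2.3 (LCR68) had 11.6 and 9.9, and PDF2.6 (LCR72) had 10.6 and 11.4, in sample 1 and sample 2. PDF2.4 (LCR66) had 4.9 and 0.9. In all, 2 of 6 measured PDF2 genes passed both limits, and 0 of 4 PDF1 genes did, PDF1.1 (LCR67) included. Over all plant probe sets 70.0% passed. Some margins were small: in sample 2 PDF2.1 passed by 1.3 units and PDF1.4 lay 0.2 units under the limit. A difference between the subfamilies was not tested. PDF1.1, known for expression in seeds, had 0.3 and 0.5, within the lower part of the control signals. The defensin-like genes LCR80 and LCR59 had between 0.4 and 2.3. In the RefSeq gene order PDF2.1, PDF2.3 and PDF2.6 follow each other directly, and PDF2.2 is separated from PDF2.1 by 1 protein-coding gene. These neighbours thus include both genes above the limits and 2 that were not.

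**Figure D3:**
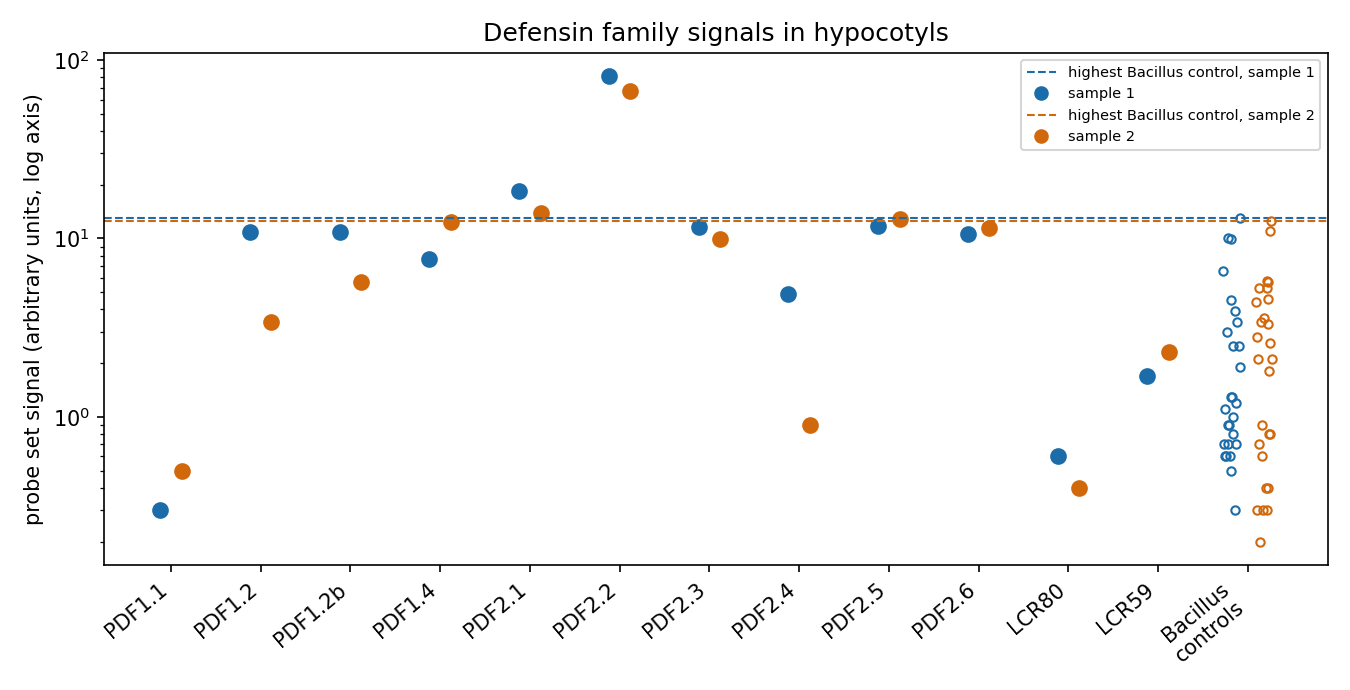
Signals of the 12 measured defensin family genes (filled points) and the 27 Bacillus control probe sets (open points, spread sideways for legibility) in sample 1 (blue) and sample 2 (orange), in arbitrary units on a log axis, with dashed lines at the highest control signals. PDF2.2, at 81.1 and 66.9, and PDF2.1, at 18.5 and 13.9, are the genes above their lines in both samples.

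Genes that act upstream of PDF1.2, in the neighbouring jasmonate branch or in other defence were counted over 4 lists. Of 64 genes, 6 had a probe set with 1 gene in the annotation used here. Of these 6, 4 passed both limits, a share near the 70.0% of all plant probe sets. EIN3, the ethylene transcription factor, had 724.5 in sample 1 and 613 in sample 2, and its log2 ratio was -0.24. MYC3 and MYC4, jasmonate transcription factors of the wound branch, had 282 and 284, and 358 and 320. OPCL1, an enzyme of jasmonate synthesis, had 324 and 423. These are the 4 genes above both limits. The other 2, the thionin genes THI2.1 and THI2.2, encode another kind of small antimicrobial peptide, and they were below the limit on both arrays. THI2.1, which is induced by jasmonate, had 8.1 and 10.7, and THI2.2 had 3.5 and 7.0. ERF1, ORA59, COI1 and the PR genes had no probe set with 1 gene in the annotation used here and were not analysed. Since 8730 plant probe sets had no name, this does not show that the array lacks probes for them.

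With 2 samples a pattern is 1 log2 ratio, so likeness to a defensin could only be measured as the distance between ratios. The listed genes above both limits with ratios closest to that of PDF2.1 were PDF2.2, at a distance of 0.13, and the xylan synthesis gene GUT1, at 0.16. Among 8906 probe sets with 1 gene above both limits, 232 others had ratios within 0.05 of that of PDF2.1, so this measure singles out no gene.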

How the data were processed

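Values were linear probe set intensities deposited by the authors, with 1 decimal. With 2% of values trimmed from either end, the mean was 100.007 on both arrays, so they were used as deposited. Per the labels, total RNA was labelled as biotinylated cRNA, and the average array background was 79.94 and 95.57. Which software summarised the probes is not given in the sources read here. The number of arrays limits the precision.

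Names came from the platform annotation, matched by gene identifier to the RefSeq gene table of TAIR10.1. Of 13513 probe sets with 1 gene, 13436 matched, and no probe set with several genes holds a PDF1. or PDF2. symbol. Another 8730 plant probe sets had no name here. No coordinates are given, as no build is named for the values.

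A gene counted as above background when both signals exceeded the highest of the 27 Bacillus controls on their arrays. All members are named, and of each list up to 4 genes, those with the highest mean signals. The remaining family genes, and the fifth marker of other tissues, A9, were named beyond that rule, after their values were seen. GUT1 is named for the likeness of its ratio. Members and lists were chosen with earlier results of these data known. Steps were tested on simulated data with Python 3.11.15, numpy 2.4.6, pandas 2.3.3 and statsmodels 0.14.6. Alternatives were other limits and scalings (same trimmed mean, same median, quantile, loess with a span of 0.3), 16 added before log2, other fold thresholds and each sample alone.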

Additional observations from a re-analysis of the deposited data

How the results depend on the processing

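The count of defensin genes above the limit depended on the limit. All 5 passed with the highest TrpnX control (2.5 and 3.3), against 85.2% of all plant probe sets. There PDF1.2 passed by 3.4 against 3.3 in sample 2. With the median Bacillus control 5 passed, against 89.1% of plant probe sets. None passed at a signal of 50 (0 genes), against 45.1% of plant probe sets. With the highest Bacillus control outside thr, a limit chosen after seeing the data, 2 passed, PDF2.1 and PDF2.5, against 75.4% of plant probe sets. From single samples the count lay between 1 and 2. The 4 scalings left it at 1, PDF2.1 each time. The trimmed mean, median and quantile scalings keep the order of signals on each array, and the limit was taken again. Only loess could therefore have changed the count. The 74 plant probe sets that differed by 2-fold became 641 with the TrpnX limit, 1078 with the median control, 27 at a signal of 50, 153 without the thr controls, 26 after adding 16 before log2, 606 at 1.5-fold and 10 at 3-fold. Without the thr controls, 71 of them were higher in sample 2 and 82 in sample 1, against 51 and 23 with the main limit. The log2 ratio of PDF1.2 became -0.47 after adding 16. The other 24 of 25 recomputed log2 ratios moved by less than the spread at like signal. No sign changed, but adding 16 or the trimmed mean (factors of 1) could change none. All 30 recomputed mean signals moved by less than 1 SD, which for values from 1 sample follows from the arithmetic. No paired analysis was possible because both arrays belong to the same group. Signal over background limits what can be read: between mean signals of 5 and 10 the SD of the log2 ratio over plant probe sets was 1.07, and at 100 or more it was 0.20.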

Other observations

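A search by prefix alone would have mixed in genes of another function. The peptide deformylase genes PDF1A and PDF1B, which encode enzymes that remove formyl groups from new organelle proteins, were above the limit on both arrays. PDF1A had 87.2 in sample 1 and 47.8 in sample 2, with a log2 ratio of -0.87, and PDF1B had 40.2 and 39.4. The mean of PDF1A was 67.5, and between mean signals of 50 and 100 the SD of the ratio over plant probe sets was 0.25. The PDF1A samples thus differed by more than the usual spread, and why was not tested.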
